A study of Homo sapiens with 7 samples.

Results

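GULP1 is the human engulfment adaptor gene on chromosome 2, and the regions described here are the HOXB13-K13ac ChIP-seq peaks at its locus. A peak belonged to the locus when it shared at least 1 bp with the 410 kb window chr2:189100000-189510000 (hg19), which holds the gene body at about chr2:189156396-189460653. In all, 150 of the 148463 peaks of the 6 deposited lists met this rule. They comprised 43 of 41303 peaks of replicate 1, 65 of 45216 of replicate 2 against input, 2 of 18232 of replicate 3 against input and 3 of 7506 of replicate 2 against IgG. A further list against input, which the labels do not assign to any library (the unassigned list), gave 37 of its 36205 peaks, and the list of replicate 3 against IgG, which has 1 peak, gave 0. The locus was chosen by the number of closely spaced sites found in at least 2 libraries, in a run from 189143193 to 189209380. The abundance, spacing and sharing of sites there are therefore given as a description, with no test. The window held 75.6 such sites per Mb, 8.38 times the 9.02 per Mb of the genome.

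The cells were C4-2B, an established castration-resistant prostate cancer line derived from LNCaP, grown for all libraries in DMEM with charcoal-stripped serum, a medium low in steroid hormones. The 7 libraries were 3 precipitations of HOXB13 carrying an acetyl group on lysine 13 (HOXB13-K13ac), 2 with control IgG and 2 inputs of sheared chromatin. Replicate 1 belongs to library series 2898 and replicates 2 and 3 to series 3047, and no label says whether the replicates were separate cultures. Lists were tied to libraries by the spelling of the labels, in which replicates 1 and 3 differ by 1 punctuation mark, so every value given for replicate 1 or 3 depends on that reading. For replicate 1 the labels and file leave the control unnamed. No read counts are given, so the depth of each library is unknown.

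GULP1 encodes a cytoplasmic adaptor with a phosphotyrosine-binding domain, the human counterpart of CED-6 of the nematode. It binds the tails of engulfment receptors such as LRP1, MEGF10 and the stabilins, and links them to the uptake of apoptotic cells. HOXB13 is a homeodomain protein that regulates transcription in prostate epithelium, and acetylation of a transcription factor can alter the cofactors it recruits. A ChIP-seq peak marks chromatin recovered with the antibody and says nothing of the activity of the gene at which it lies. In the RefSeq gene table, GULP1 holds the microRNA gene MIR561, and its nearest protein-coding neighbours are TFPI and COL3A1. That table is on another build, so neither exons and introns nor these neighbours were placed beside the peaks.

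The strongest peaks of the locus covered the gene start, and the promoter is shown for this reason. The sequence is that of RefSeq on GRCh38.p14, the 250 bases before the annotated start on the plus strand, chr2:188291624-188291873. These coordinates cannot be set beside the hg19 positions of the peaks. Capitals mark CG dinucleotides, the sites of DNA methylation.

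GULP1 promoter: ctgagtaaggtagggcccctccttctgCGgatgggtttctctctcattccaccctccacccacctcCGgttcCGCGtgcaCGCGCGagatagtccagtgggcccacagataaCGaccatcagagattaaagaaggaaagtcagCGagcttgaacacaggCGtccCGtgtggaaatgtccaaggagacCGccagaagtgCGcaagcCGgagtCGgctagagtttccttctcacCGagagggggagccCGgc

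The stretch held 17 CG dinucleotides and was 59.2% G and C. Across 35114 RefSeq promoter stretches of the same length the medians were 11 (interquartile range 3 to 23) and 58% (46.4 to 68), so the GULP1 promoter lay near the middle of both ranges. On either strand it held neither of the searched HOXB13 motifs, CAATAAA and TTTACGA, which occurred in 3.67% and 0.444% of the promoters. The forkhead motif TGTTTAC (2.98% of promoters) and the full androgen receptor palindrome (1 promoter of 35114) were not found in it either. These searches cover 250 bases only, and the peaks at the gene start extended well beyond that.

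At the gene start, replicate 1 had a peak of 4829 bp (chr2:189155274-189160102), the widest of the locus, with a fold enrichment of 18.7. Fold enrichment is the authors' own value for a peak, a ratio of its signal to the background. In replicate 2 against input the peak was 4440 bp wide, with a fold enrichment of 38.7. Both peaks contained the approximate gene start, and their summits lay 613 bp and 792 bp after it. The list tied to no library had a peak of 4310 bp there, with a fold enrichment of 22.0 and a summit at 772 bp. Replicate 3 had no peak at this site. By fold enrichment the site ranked 430 of 41303 in replicate 1 and 379 of 45216 in replicate 2, within the top 1.04% and 0.838% of the lists.

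The gene start site was also called over IgG, in 2 separate peaks of replicate 2. The first spanned 189156014 to 189157425. Over IgG it was enriched 5.94-fold, rank 242 of 7506, at a −log10 q of 5.84. Its summit fell on the same base as that of the peak against input. The second spanned 189157614 to 189159287 and was enriched 3.57-fold, but its −log10 q of 1.01 fell short of a q of 0.05. To place the missing replicate 3 peak, sites at least as high as this one in both replicates 1 and 2 were taken from the whole genome, a set defined after its values were seen. Of these 122 other sites, 108 (88.5%) held a replicate 3 peak, 118 (96.7%) were called over IgG at any q and all 122 were in the unassigned list. The gene start of GULP1 thus shared the IgG call of nearly all such sites and was among the few without a replicate 3 peak. The lists over IgG and against input come from the same replicate 2 precipitation. Neither the IgG calls nor the shared summit base are therefore independent of the replicate 2 values by which these sites were taken.

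**Figure D1:**
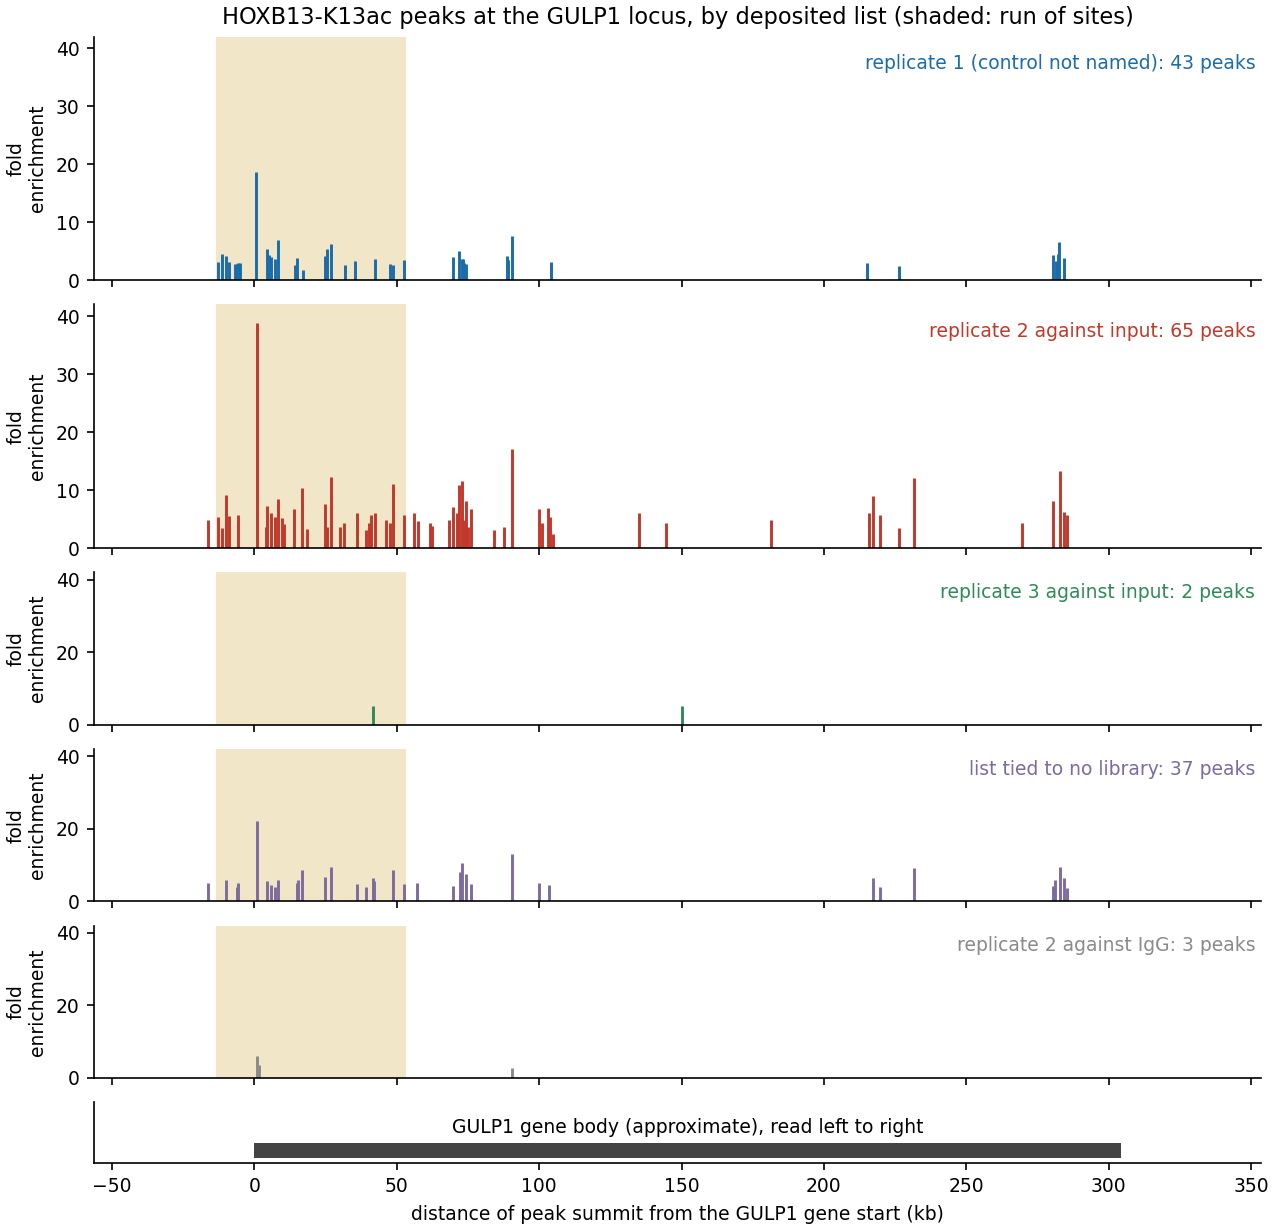
Peaks along the GULP1 locus in 5 deposited lists (the unassigned list is drawn as tied to no library), shown as lines at the summit with the authors' fold enrichment as height, against distance from the approximate gene start in kb. The run of sites is shaded, and the tallest peak of replicates 1 (18.7) and 2 (38.7) stands just after the gene start.

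Around the gene start lay a run of 20 replicated sites, a replicated site being a merged region with peaks of at least 2 libraries. Sites no more than 10 kb apart were joined into a run. It spanned 66.2 kb, from 13.2 kb before the gene start to 53.0 kb after it, and so covered the promoter and the first part of the gene. The run held 26 peaks of replicate 1, 30 of replicate 2, 1 of replicate 3 and 19 of the unassigned list, and their peaks covered 28.8%, 43.0%, 0.636% and 21.5% of its length. Of its 20 sites, 5 lay before the gene start and 15 at or after it. The gaps between neighbouring sites ranged from 38 bp to 8108 bp, with a median of 571 bp.

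Apart from the gene start site, the sites of the run were weak. Without it, fold enrichment ranged from 1.87 to 6.93 in replicate 1 (median 3.65, 18 sites) and from 3.52 to 12.2 in replicate 2 (median 6.08, 19 sites). Over all 27046 replicated sites of the genome the medians were 5.83 and 9.37. The 19 remaining sites thus sat mostly below the middle of the genome's sites in both libraries.

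The run began with the site chr2:189143193-189144277, with a fold enrichment of 3.19 in replicate 1 and 5.30 in replicate 2. It ended with chr2:189208457-189209380, at 3.50 and 5.74. Both ends were therefore as weak as the run's other sites. Its second strongest site in replicate 2 was chr2:189183177-189184171, 26.8 kb after the gene start, with 12.2 in replicate 2, 6.28 in replicate 1 and 9.47 in the unassigned list. In replicate 1 the second strongest was chr2:189163938-189164935, 7.54 kb after the gene start, with 6.93 against 8.52 in replicate 2 and 6.01 in the unassigned list. Summits of replicates 1 and 2 lay 11 bp apart at the first of these sites and 149 bp apart at the second.

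**Figure D2:**
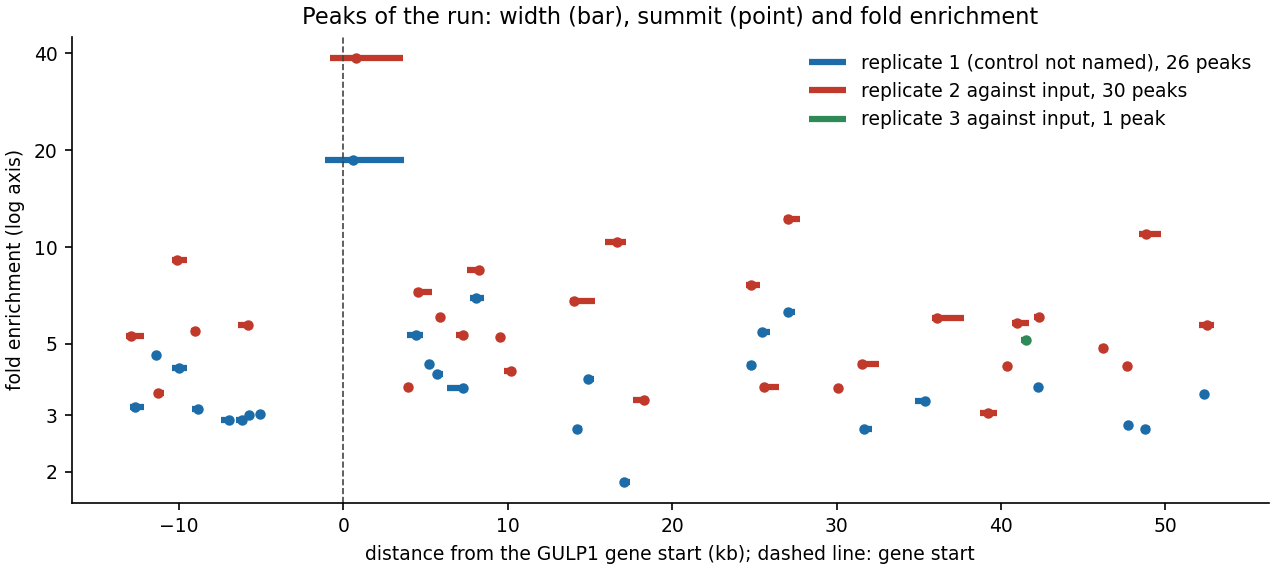
Peaks of replicates 1, 2 and 3 in the run, as bars from peak start to peak end with a point at the summit, at the height of the authors' fold enrichment on a log axis. The pair of wide peaks at the gene start stands at 18.7 and 38.7, and no other peak of the run exceeds 12.2.

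The bounds of the run followed from the joining distance. The nearest replicated site before it ended 223 kb away, and the nearest after it, chr2:189225744-189226496 with a fold enrichment of 3.97 in replicate 1 and 7.17 in replicate 2, began 16.4 kb away. Joining within 5 kb left 10 sites in 21.7 kb, from 189143193 to 189164935, a stretch that still contained the gene start site. Joining within 20 kb gave 27 sites in 118 kb, up to 189261463. The core of the run was thus the 21.7 kb around the gene start.

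After the run the gene held 11 more replicated sites in 251 kb, or 4.38 per 100 kb compared with 30.2 per 100 kb within the run. A group of 5 lay in 5.46 kb from 189225744 to 189231204. Its strongest site in replicate 2 was chr2:189229014-189229455, 72.6 kb after the gene start, with 11.6 in replicate 2, 3.64 in replicate 1 and 10.5 in the unassigned list. Further on, chr2:189246535-189247593 was the second strongest site of the whole locus, with 17.0 in replicate 2, 7.60 in replicate 1 and 13.0 in the unassigned list. That site, 90.1 kb after the gene start, was the only other one called over IgG. Its IgG peak was enriched 2.64-fold at a −log10 q of 0.

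Near the far end of the gene a group of 3 sites lay from 189435226 to 189441127. The strongest of them, chr2:189438440-189439998, was 282 kb after the gene start and had 13.4 in replicate 2, 6.63 in replicate 1 and 9.51 in the unassigned list. Single sites at chr2:189259826-189261463 and chr2:189382306-189383013 had 5.39 and 3.39 in replicate 2 and 3.11 and 2.50 in replicate 1. The sites after the run were not weaker than those within it: their median was 8.11 in replicate 2 and 3.88 in replicate 1, beside 6.08 and 3.67 for all 20 sites of the run.

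Large stretches of the locus held no peak of any of the 3 replicate lists. The longest ran for 67.6 kb from 189442425 to the end of the window, and included the approximate end of the gene. Inside the gene, 4 stretches of 29.9 kb to 37.2 kb were empty, the longest from 189388598 to 189425789. Before the run, the first 39.97 kb of the window was empty and a single peak of replicate 2 (chr2:189139970-189140495, fold enrichment 4.87) preceded the first site. Outside the window, the nearest region on the side before it was a replicate 2 peak of 4.26 at chr2:189010815-189011095, 88.9 kb away. After the window, the first was a replicate 3 peak of 4.05 at chr2:189549472-189549634, 39.5 kb beyond its end. Widening the window by less than 39.5 kb on either side would have added no peak of these 3 lists.

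Replicates 1 and 2 shared 30 of the regions of the locus. Merging the 3 replicate lists gave 69 regions, of which 31 (44.9%) were replicated, close to the 41.2% of all 65675 merged regions. Replicate 2 alone accounted for 31 regions, replicate 1 alone for 6 and replicate 3 alone for 1. Replicate 2 met 37 of the 43 replicate 1 peaks (86.0%, exact 95% binomial interval 72.1 to 94.7), beside 76.9% in the whole list. Replicate 1 met 33 of the 65 replicate 2 peaks (50.8%, 38.1 to 63.4), beside 62.9%. Both intervals include the share of the whole list. Sharing between libraries entered the choice of the locus, so these shares are a description and no conclusion is drawn from them. Counting error alone is covered by these intervals, and peaks that lie close together are not independent of each other. Without replicate 1 the locus kept 1 replicated site, without replicate 2 it kept 0 and without replicate 3 it kept 30.

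At 30 sites of both libraries, fold enrichment was higher in replicate 2 at 29. The exception was chr2:189144849-189145457, with 4.63 in replicate 1 and 3.52 in replicate 2. Replicate 2 was also higher at 88.3% of such sites genome-wide. The ratio of replicate 2 to replicate 1 had a median of 1.74 over the 30 sites, beside 1.65 genome-wide, and ranged from 0.761 to 5.54. The widest difference was at chr2:189172324-189173814, 15.9 kb after the gene start, with 10.3 in replicate 2, 1.87 in replicate 1 and 8.51 in the unassigned list. At chr2:189204811-189206123 the values were 11.0 in replicate 2, 2.72 in replicate 1 and 8.51 in the unassigned list. At both sites replicate 2 and the unassigned list gave values well above that of replicate 1. The control of replicate 1 is not named, and the cause of these differences was not tested.

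Fold enrichments of the 2 libraries ranked alike only loosely. Spearman's rho was 0.54 over the 30 sites, 0.40 over the 19 of the run and 0.29 over the 18 left without the gene start site, beside 0.71 over 26760 sites genome-wide. These are descriptions across sites that share the same libraries, and weak sites span a narrow range of values. Summits of the 2 libraries lay within 100 bp of each other at 14 of the 30 sites (46.7%), beside 57.9% genome-wide. Their distance had a median of 137 bp (80 bp genome-wide) and a maximum of 905 bp. Each summit is that of the library's highest peak at the site. Where a library has several peaks there, the distance need not be the shortest between summits of the 2 libraries.

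**Figure D3:**
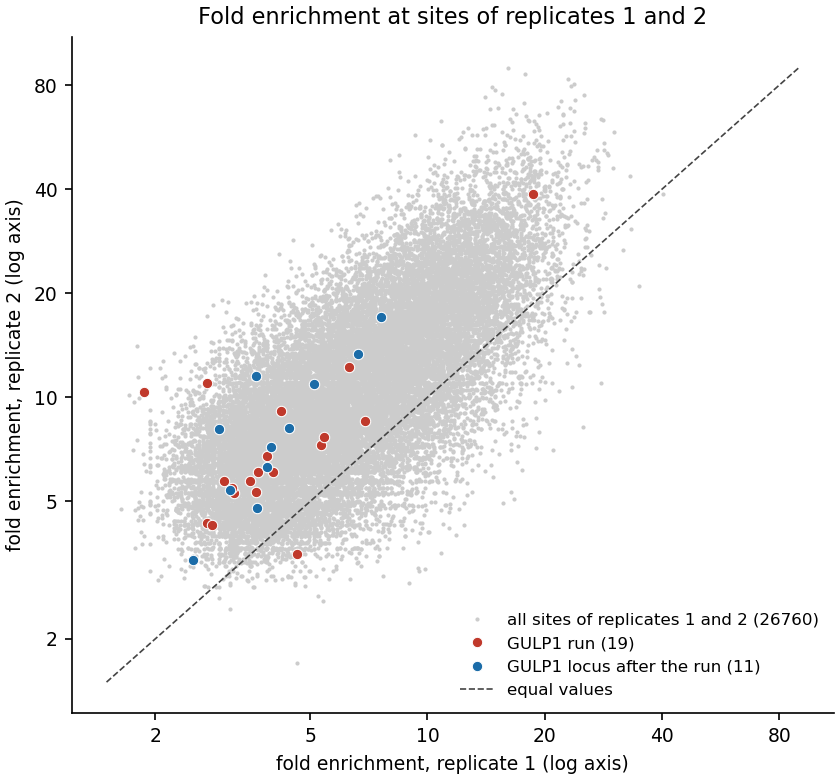
The authors' fold enrichment in replicate 2 against replicate 1, on log axes, at all 26760 sites of both libraries (grey), at 19 sites of the GULP1 run (red) and at 11 sites after it (blue). Most GULP1 sites lie in the lower left, and 1 site, that of the gene start, stands apart at 18.7 and 38.7.

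Peaks of the locus were weak for their lists in other measures too. Of the 43 replicate 1 peaks, 24 (55.8%, 39.9 to 70.9) had a −log10 q of 5 or more, beside 80.7% of the whole list. Of the 65 replicate 2 peaks, 39 did (60.0%, 47.1 to 72.0), beside 67.2%. Median fold enrichment was 3.64 in replicate 1 (interquartile range 3.03 to 4.37), beside 4.67 in its whole list, and 5.74 in replicate 2 (4.26 to 7.17), beside 6.50. The share of the whole list at that q lay outside the interval in replicate 1 and inside it in replicate 2. Neighbouring peaks are not independent, so this is a description and not a test. Identical values were the rule in these lists. All 65 replicate 2 peaks of the locus shared both fold enrichment and q with another peak of their list, as did 93.9% of the whole list, and 40 of the 43 replicate 1 peaks (93.02%) did so, beside 88.6%. Within the locus, 26 of the replicate 2 peaks and 7 of the replicate 1 peaks shared both values with each other, and 6 of replicate 2 stood at 6.08.

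Peaks of replicate 2 that replicate 1 also had were stronger and wider than the others. Their median fold enrichment was 6.29 and their median width 858 bp, compared with 4.87 and 505.5 bp for the 32 without a replicate 1 partner. Genome-wide the medians were 9.12 and 4.63. Among replicate 2 peaks without a partner, the strongest was chr2:189387878-189388597, with a fold enrichment of 12.2, and it was also in the unassigned list. For replicate 1, the 6 peaks without a replicate 2 partner had fold enrichments from 2.91 to 4.21.

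Replicate 3 contributed almost nothing at this locus, a scarcity also found in some of the runs most like it, as given below. No site held peaks of all 3 libraries (0 of 31, which allows a share of up to 9.68%), beside 17.0% of all replicated sites. The 2 sets differ in strength. Median fold enrichment was 3.78 in replicate 1 and 6.78 in replicate 2 at the locus, beside 5.83 and 9.37 genome-wide. The genome-wide shares were not matched for strength. None of the 43 replicate 1 peaks (0%, which allows up to 6.98%) and 1 of the 65 replicate 2 peaks (1.54%, 0.0389 to 8.28) met a replicate 3 peak, beside 11.7% and 10.5% of the whole lists. The single shared site was chr2:189197101-189198095 in the run, 40.7 kb after the gene start, with 5.79 in replicate 2, 5.13 in replicate 3 and 6.51 in the unassigned list. The other replicate 3 peak, chr2:189306507-189306745 with a fold enrichment of 5.05, met no other list. With 2 replicate 3 peaks in the window, their share in replicate 2 (1 of 2) cannot be read against the 29.6% of the whole list. Replicate 3 was the shortest of the 3 lists, and 6.28% of its peaks had a −log10 q of 5 or more. What its shortness adds to these counts was not tested.

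Calls over IgG were likewise few. Of the 31 replicated sites, 2 (6.45%, 0.791 to 21.4) were called over IgG in replicate 2, the gene start site and the site 90.1 kb after it, beside 23.2% genome-wide. Of the 65 replicate 2 peaks against input, 2 (3.08%, 0.375 to 10.7) were called, beside 14.0%. The 2 sites called over IgG were those of highest fold enrichment over input in replicate 2, 38.7 and 17.0, and the next, at 13.4, was not called. Both intervals end below the genome-wide share beside them. They treat neighbouring peaks and sites as independent, which these are not, so the shares are given as a description. Only the gene start site passed a q of 0.05 over IgG, and 19 of the 20 sites of the run had no IgG-list peak. The genome-wide shares above count IgG-list peaks of any q, and the share at a q of 0.05 was not counted. Weak calls were common in the whole list of replicate 2 against IgG. Its median −log10 q was 0.686, and 2.70% of its peaks had 5 or more.

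Most shares of overlap between the unassigned list and the replicates at this locus had intervals that include the genome-wide share. The exceptions were its peaks met by replicate 3 and the replicate 2 peaks found in it. As above, the intervals treat neighbouring peaks as independent. All 37 of its peaks met a replicate 2 peak (90.5 to 100), beside 90.9% of the whole list. Of the 37, 25 met a replicate 1 peak (67.6%, 50.2 to 81.99), beside 76.7%, and 1 met a replicate 3 peak (2.70%, 0.0684 to 14.2), beside 16.4%. The interval for replicate 3 ends below the share of the whole list. Of the 31 regions of replicate 2 alone, 11 were in it (35.5%, 19.2 to 54.6), beside 29.5%. Of the 6 of replicate 1 alone 0 were, beside 4.86%, and with 6 regions this count says little. It held 23 of the 31 replicated sites (74.2%, 55.4 to 88.1), beside 86.9% genome-wide. Of the replicate 1 peaks, 26 (60.5%, 44.4 to 75.02) were in it, beside 67.4%, and of the replicate 2 peaks, 34 (52.3%, 39.5 to 64.9), beside 65.1%. The interval of the replicate 1 share includes that of its whole list, whereas that of replicate 2 ends just below it. The 8 replicated sites outside the unassigned list were weak, with fold enrichments in replicate 2 of 3.39 to 5.47.

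Runs of at least 5 replicated sites numbered 448 in the genome, and the GULP1 run was compared with them as a description. The number of sites, by which it was chosen, was exceeded by 1 run, and its length of 66.2 kb by 4. In density it was ordinary, with 3.02 sites per 10 kb beside a median of 2.92 over the runs. Its median fold enrichment was low, with 425 of the 448 runs above it in replicate 1 (3.67 beside a median of 5.72) and 412 in replicate 2 (6.08 beside 10.04). Its highest fold enrichment was high, with 40 runs above it in replicate 1 (18.7 beside 11.7) and 45 in replicate 2 (38.7 beside 22.3). The highest site was 6.37 times the median of the run in replicate 2, a ratio that 1 run exceeded, beside a median of 2.08. A maximum tends to rise with the number of sites, here 20 beside a median of 6 over the runs. The ranks of the maxima and of this ratio are therefore not independent of the site number by which the run was chosen. Of the sites of the GULP1 run, 5% were called over IgG and 346 runs had a higher share, beside a median of 20%. A replicate 3 peak was held by 5% of its sites, with 254 runs higher and 193 lower, beside a median of 14.3%.

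**Figure D4:**
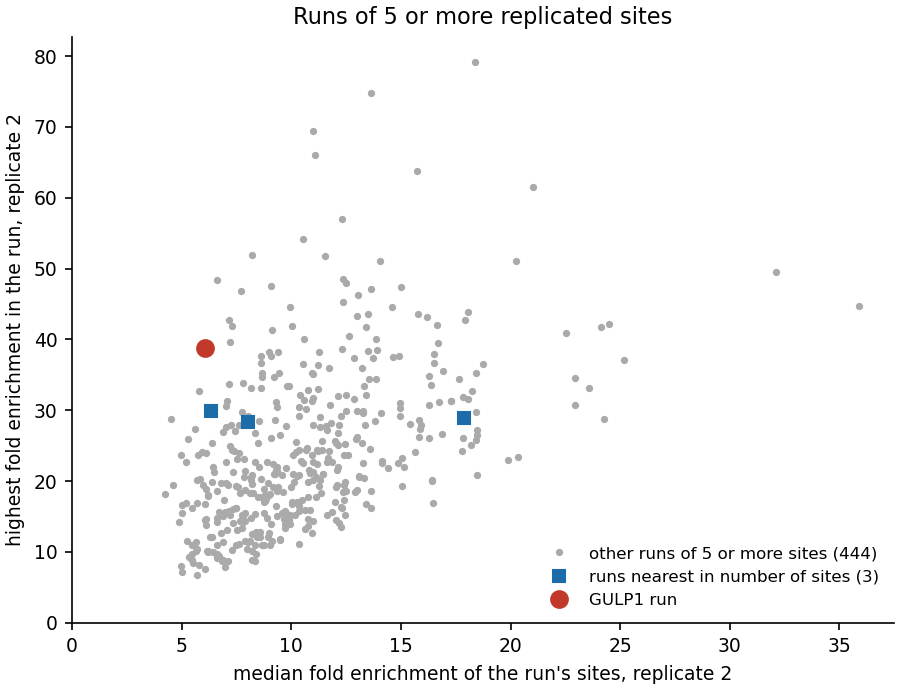
Highest against median fold enrichment in replicate 2 of the sites of each run of at least 5 replicated sites. The GULP1 run (red) combines a median of 6.08 with a maximum of 38.7, and the 3 runs nearest to it in number of sites (blue) have maxima of 28.4 to 29.9.

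The 3 runs nearest in number of sites showed the contrast at similar size. A run of 18 sites on chromosome 21 (17674974 to 17726599) had a median of 8.01 and a maximum of 28.4 in replicate 2, with 4 sites called over IgG. On chromosome 12 a run of 17 sites (64943582 to 65006251) had 6.33 and 29.9, with 3 called. On chromosome 19 a run of 17 sites (51338363 to 51412835) had 17.9 and 28.9, with 9 called. The GULP1 run, with 20 sites and 1 called, had the highest maximum and the lowest median in replicate 2 of the 4, and no test of that difference was made. Sites with a replicate 3 peak numbered 0 in the chromosome 21 run, 0 in that on chromosome 12 and 4 in that on chromosome 19, beside 1 in the GULP1 run.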

How the data were processed

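The authors deposited 6 peak lists from ChIP-seq libraries of C4-2B cells. The build was hg19 (GRCh37), and the tools named are MACS2, BWA, Bowtie2 and CASAVA 1.4, per the submitters' processing notes. The threshold, the filter and what each tool did were not given in the sources used here. Each deposited peak has a fold enrichment (a ratio), and the authors' −log10 p and −log10 q. No read counts are given, so the depth of each library and the precision it allows are unknown. Lists were tied to replicates by the spelling of the labels, so values for replicates 1 and 3 depend on a difference of 1 punctuation mark.

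Window, gene bounds and run were those of the selection rule, and the members and lists were chosen with earlier results of these data known. Peaks sharing 1 bp were merged, regions of at least 2 libraries were called replicated sites, and sites within 10 kb were joined (Python 3.11.15, NumPy 2.4.6, pandas 2.3.3, SciPy 1.17.1, Matplotlib 3.10.9). The fold enrichment of a site in a library is the highest of its peaks there. Coordinates count from 1. Sites were named by a fixed rule: the strongest 5 in replicates 1 and 2, that at the gene start, the widest, those with an IgG-list q of 0.05 or less, those of all 3 libraries, and the ends and neighbours of the run. Other named sites were chosen after their values were seen. Shares have exact binomial (Clopper-Pearson) 95% intervals, and a share of 0 a limit of 3 counts. The intervals treat peaks and sites as independent, which neighbours are not, and are given as a description. Merging and joining were tested on simulated lists, and 60 of 60 overlap counts were equal to those from bedtools 2.31.1. No test between groups was made. Motifs at peaks and a list of engulfment pathway genes, which need an hg19 genome and annotation, were not analysed here.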

Additional observations from a re-analysis of the deposited data

Results flagged for a closer look

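At the GULP1 locus 37 peaks came from the unassigned HOXB13-K13ac list, which lies outside the replicate lists on which the sites rest; the signal was not compared with an unassigned control. Every one of them met a replicate 2 peak, beside 90.9% of the whole list. The replicated sites in that list had a median fold enrichment of 8.11 in replicate 2 and those outside it 4.56, beside 10.5 and 4.89 genome-wide. Whether it shares reads with replicate 2 was not tested.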

How the results depend on the processing

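The counts of sites at the locus rested on replicates 1 and 2. Leaving out each library in turn gave 0 to 30 replicated sites (31 with all), 0 to 19 sites in the run (20), a run of 0.995 to 66.2 kb and a density of 0 to 8.2 times that of the genome (8.38). The lowest values came without replicate 1 (1 site) or 2 (0 sites, hence no run length). At a −log10 q of at least 5 there were 24, 39 and 0 peaks in replicates 1, 2 and 3, 1 over IgG, 21 in the unassigned list, 18 replicated sites, and a run of 10 sites in 38.2 kb. Requiring summits within 100 bp left 15 replicated sites, of which the largest group joined within 10 kb at the run held 3, and 34.9% of replicate 1 peaks and 23.1% of replicate 2 peaks met one of the other library. Requiring an overlap of 0.5 of both widths gave 46.5% and 30.8%, and 1 rather than 2 peaks called over IgG, as did an IgG-list q of 0.05 or less. Joining within 5 kb gave 10 sites in 21.7 kb, and within 20 kb a length of 118 kb. With the unassigned list in place of replicate 3, 22 sites held all 3 lists. The other 26 of 53 alternative values stayed within 1.5 times of a count or density, the interval of a share or the interquartile range of a median, including the gene body alone in place of the window. Changes under a stricter threshold, overlap or joining distance follow from fewer peaks or pairs counting. Counts of sites without replicate 1 or 2 follow from the libraries the sites hold. Of the 31 replicated sites, 30 held replicates 1 and 2 only, and 1 held replicates 2 and 3. The cause of any other change was not tested. No paired analysis was possible because the results come from no test: the lists give peaks of the HOXB13-K13ac libraries only, with no values for the IgG and input libraries that could be paired with them. Depth is unknown, so absence of a peak does not show absence of enrichment.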
